A study of Rattus norvegicus with 6 samples.

Results

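The extracellular matrix of the brain is built on hyaluronan, a long sugar chain made at the cell surface. Lecticans, which are chondroitin sulfate proteoglycans, bind the chain at their N-terminal end, link proteins hold that bond in place, and tenascins join lecticans to each other at their C-terminal end. Around some neurons this matrix condenses into perineuronal nets, which form as circuits mature and limit plasticity, and astrocytes and cells of the oligodendrocyte lineage make much of it. The genes described here are 10 of this matrix: the lecticans Acan, Bcan, Ncan and Vcan, the link proteins Hapln1 and Hapln4, the tenascins Tnr and Tnc, and the matrilins Matn2 and Matn4, whose products connect other matrix proteins into filaments. They were taken by gene name and fill 12 of the 26405 rows of the count table, 6 found by symbol and 6 by the gene name in the description.

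RNA of 6 rat hippocampal neuronal primary cultures was sequenced, to ask how gene expression differs when the synaptic scaffold protein S-SCAM (gene Magi2) is reduced. In 3 cultures a lentivirus (KD) delivered the shRNA Oligo#2 against all S-SCAM isoforms, from a vector that also expresses EGFP. In the 3 control cultures (genotype label WT) the labels give an empty shRNA vector, whereas a figure legend of the study names a control shRNA. Both groups came from embryonic rat hippocampi, were infected at DIV2 (day in vitro 2) and were lysed for RNA at DIV9. The cultures are labelled as biological replicates, a single shRNA was sequenced, and each sample holds every cell of a culture, so fewer cells of a type cannot be told apart from less RNA per cell.

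Libraries held 13061705 to 29654651 counts. Magi2 was at 74.7 to 95.8 CPM (read counts scaled to library size, with TMM factors) in the control and at 21.1 to 40.4 CPM in the knockdown cultures, 36.3% of the control mean, with an edgeR adjusted p of 0.228 and a DESeq2 adjusted p of 0.00124, which was 0.0785 with control replicate 3 left out. Knockdown replicate 2 stood apart on the first principal component (40.3% of the variance), at 63.0 against 20.7 and -14.3 in knockdown replicates 1 and 3 and -27.2 to -18.0 in the controls. All 12 general neuron markers were found and tested. Markers of astrocytes were also present, with a summed level of 6397 to 13696 CPM in the control cultures.

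The RNA of the link protein Hapln1 and of the matrilin Matn2 was lower in the knockdown cultures by DESeq2, and that of aggrecan (Acan) had separated groups, with all 3 knockdown cultures under the controls, but passed the adjusted threshold of neither tool here. The supplement of the study, from its own DESeq2 run, lists Acan, Hapln1 and Matn2 as lower at an adjusted p under 0.05. The study also measured Matn2 by qPCR in cultures of other time windows. It reports results similar to its sequencing for the genes measured there, and its text gives no value for Matn2. Why the DESeq2 runs differ for Acan was not tested. The estimate was below 0 for all 9 rows with enough counts to be tested. Their median log2 fold change was -0.92 against -0.02 over all 13917 genes tested, of which 52.4% had a lower estimate. The quasi-likelihood test of edgeR (Benjamini-Hochberg adjusted over the whole table, threshold 0.05) called 0 of the 9, as it called 0% of all genes (the smallest adjusted p was 0.228). DESeq2 called 2 of the 9 (Hapln1 and Matn2, both lower), where it called 1.07% of 14743 genes lower and 0.251% higher (1.32% in all). At an unadjusted edgeR p under 0.05 there were 3 members, all lower, against 7.14% of genes lower and 3.69% higher (10.8% in all). Groups did not overlap for 3 members (Acan, Hapln1 and Matn2, all lower), against 10.2% of genes lower and 7.42% higher (17.6% in all).

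The regions upstream of Acan and Hapln1 are shown because these are the members with separated groups for which RefSeq's promoter table (build GRCr8) has an entry. Each runs 5′ to 3′ on the gene's strand from 250 bases before to 50 bases after the annotated start. That of Acan is chr1:142390701-142391000 on the plus strand and that of Hapln1 is chr2:22366717-22367016 on the plus strand.
Acan: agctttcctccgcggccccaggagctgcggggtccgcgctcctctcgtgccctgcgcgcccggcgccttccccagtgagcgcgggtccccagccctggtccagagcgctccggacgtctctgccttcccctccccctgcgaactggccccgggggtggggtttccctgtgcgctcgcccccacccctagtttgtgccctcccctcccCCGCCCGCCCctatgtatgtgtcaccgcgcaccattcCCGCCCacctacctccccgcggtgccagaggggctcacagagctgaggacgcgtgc
Hapln1: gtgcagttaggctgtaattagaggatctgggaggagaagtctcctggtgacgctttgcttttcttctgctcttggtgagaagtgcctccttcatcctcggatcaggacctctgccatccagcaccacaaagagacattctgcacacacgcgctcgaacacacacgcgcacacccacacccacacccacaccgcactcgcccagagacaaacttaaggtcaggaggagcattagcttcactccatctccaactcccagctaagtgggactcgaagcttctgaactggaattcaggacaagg
Capitals mark matches to GGGCGG (the GC box) read on the opposite strand, and the search covered both strands for 6 motifs. Acan has 3 matches, from -43 to -38, -39 to -34 and -6 to -1 relative to the start, of which the first and second overlap. The other motifs were the TATA box (TATAAA), the CCAAT box (CCAAT), the E-box (CACGTG), the AP-1 site (TGANTCA) and the CRE (TGACGTCA). The Hapln1 region holds no match to any of the 6. Among 33469 promoters of the same length, 33.1% hold the GC box, 14.2% the TATA box, 37.5% the CCAAT box, 6.42% the E-box, 7.33% the AP-1 site and 1.83% the CRE. The Acan region has a GC content of 73.0% and the Hapln1 region of 53.7%, with a median of 51.7% over all promoters. These matches describe letters only, and binding was not measured. Of the 10 genes, 8 have an entry.

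Aggrecan is the lectican that forms the core of perineuronal nets. The Acan row (ENSRNOG00000028992, chromosome 1 of rn5 from 141732130 to 141793202) was at 8.84, 6.32 and 10.3 CPM in control replicates 1 to 3 and at 4.50, 3.01 and 5.36 CPM in knockdown replicates 1 to 3. The highest knockdown value was below the lowest control value. The means were 8.47 ± 2.00 and 4.29 ± 1.18 CPM (SD, n = 3 cultures each), so the knockdown cultures held 50.6% of the control level. On the log2 scale the fold change was -0.99 (SE 0.34, edgeR unadjusted p = 0.0184, adjusted p = 0.408), and the adjusted p of DESeq2 was 0.204. An exact two-sided permutation test of the 6 values gave p = 0.1, the smallest that 3 against 3 cultures allow. When each culture was left out in turn, the edgeR estimate stayed between -1.19 and -0.75.

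Brevican is a lectican largely restricted to the nervous system. The Bcan row (ENSRNOG00000018798, chromosome 2 from 206762694 to 206775669) carries a placeholder symbol and was named by its description. It was at 503, 638 and 567 CPM in the control and 404, 258 and 733 CPM in the knockdown cultures. The groups overlapped, since knockdown replicate 3 was above all controls while the other 2 were below them. The log2 fold change of -0.29 (SE 0.35, edgeR adjusted p = 0.789) turned to 0.03 without knockdown replicate 2.

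Versican (Vcan), a lectican of embryonic and white matter tissue, differed least of the members. Its row (ENSRNOG00000029212, chromosome 2 from 18363890 to 18441931) lies near that of Hapln1 on the chromosome. Levels were 91.2, 156 and 136 CPM in the control and 85.7, 89.2 and 190 CPM in the knockdown cultures. The knockdown cultures spanned the whole control range and beyond it on both sides. The log2 fold change of -0.07 (SE 0.35, edgeR adjusted p = 0.954) turned positive when any of 4 cultures was left out (control replicates 2 and 3, knockdown replicates 1 and 2). An overlapping gene without a name held 5 counts in all libraries together.

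Neurocan (Ncan), a lectican of the developing brain, and Hapln4, a brain link protein, cannot be read with confidence from this table. Each has 2 rows on chromosome 16 of rn5, in a window from 20900031 to 21005078 where the Ncan and Hapln4 pair appears in the same order again, while RefSeq's list for GRCr8 has 1 entry for each. A read that matches both copies equally has no single place, and how such reads were counted is not given in the sources used here. Both Hapln4 rows (ENSRNOG00000049949 and ENSRNOG00000050507) had 0 counts in all 6 libraries. A count of 0 allows up to 3 counts per library, or 0.101 to 0.230 CPM, for reads assigned to a copy, counting error only. The Ncan row ENSRNOG00000020448 held 15 counts in all and was not tested. The other, ENSRNOG00000048036, was at 5.88, 9.10 and 9.52 CPM in the control and 5.37, 3.64 and 8.36 CPM in the knockdown cultures. These groups overlapped (log2 fold change -0.50, SE 0.38, edgeR adjusted p = 0.668), and the estimate was -0.48 with the counts of both rows summed.

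**Figure D1:**
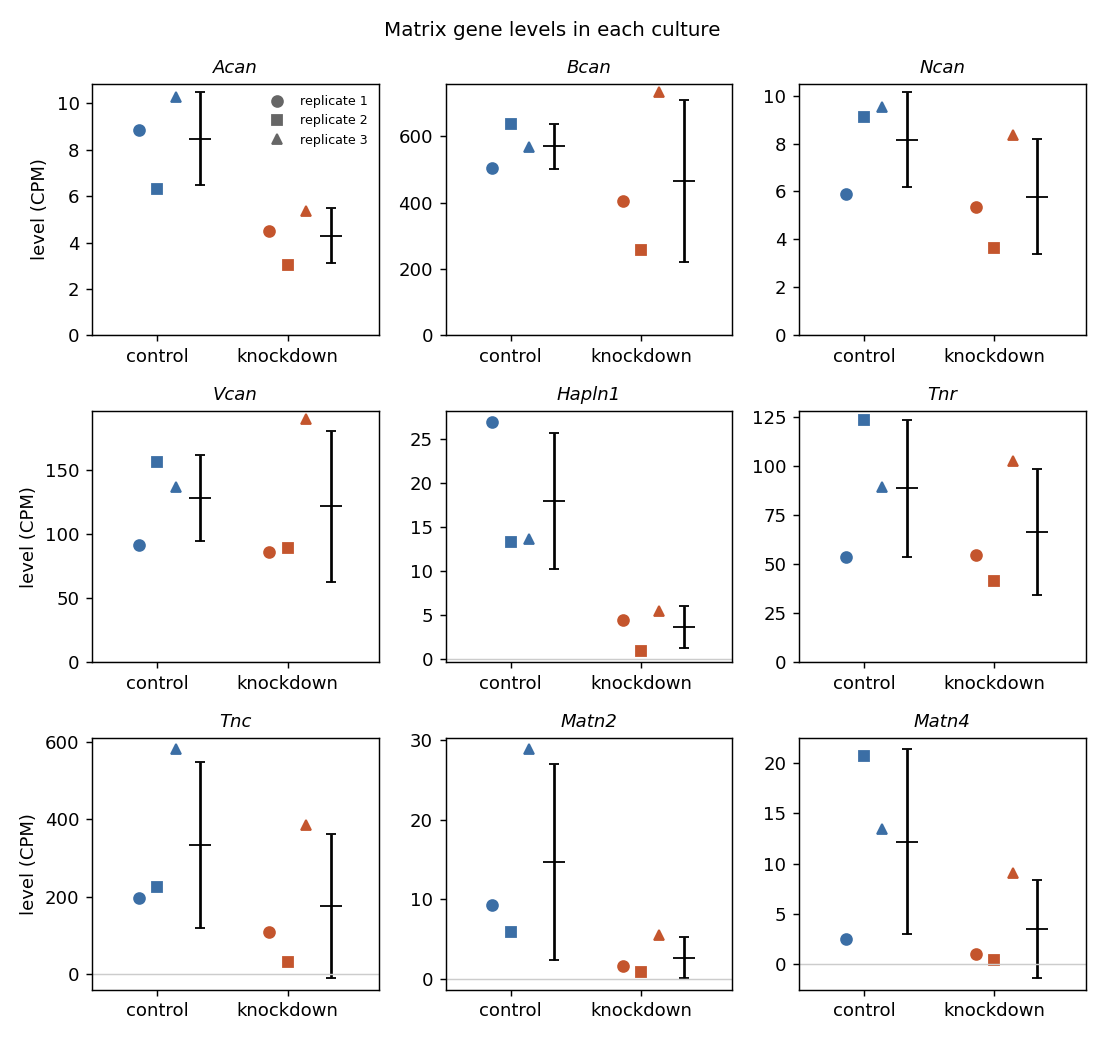
Level of each tested matrix gene (CPM, linear axis) in the 3 control (blue) and 3 knockdown (orange) cultures, with marker shape for the replicate number and a black bar for the mean ± SD of each group. Acan, Hapln1 and Matn2 show no overlap between groups, and knockdown replicate 3 (triangle) is the highest knockdown culture in all 9 panels.

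Hapln1 encodes the link protein that stabilises the bond between hyaluronan and lecticans, and it had the smallest p of the members in both tools. Hapln1 (ENSRNOG00000032002, chromosome 2 from 18229924 to 18291848) was at 26.9, 13.3 and 13.6 CPM in the control and at 4.44, 0.866 and 5.40 CPM in the knockdown cultures. The lowest control culture was thus above the highest knockdown culture, and knockdown replicate 2 was the lowest of all, with 25 counts. The means were 17.9 ± 7.75 and 3.57 ± 2.39 CPM (SD, n = 3 each), or 19.9% of the control level. EdgeR gave a log2 fold change of -2.34 (SE 0.61, edgeR unadjusted p = 0.00458, adjusted p = 0.344), and DESeq2 called it with an adjusted p of 0.00694. That call was lost without control replicate 1 (adjusted p = 0.175), the highest culture, and without control replicate 3 (0.0773), while the DESeq2 estimate stayed between -2.75 and -1.84 with each culture left out. The exact permutation test gave p = 0.1.

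Tenascin-R (Tnr) is made by oligodendrocyte lineage cells and some neurons and crosslinks lecticans in nets. Its row (ENSRNOG00000002468, chromosome 13 from 82511491 to 82587627), named by a description taken from the mouse gene, was at 53.6, 123 and 89.3 CPM in the control and 55.0, 41.6 and 102 CPM in the knockdown cultures. The groups overlapped, and control replicate 1 lay close to knockdown replicate 1. Its log2 fold change was -0.42 (SE 0.39, edgeR adjusted p = 0.725).

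Tenascin-C (Tnc) is a matrix protein of glial precursors and astrocytes that is abundant in development and after injury. Tnc (ENSRNOG00000049585, chromosome 5 from 83891006 to 83950462) was at 196, 226 and 581 CPM in the control and 111, 31.7 and 386 CPM in the knockdown cultures. Knockdown replicates 1 and 2 were below all controls, but knockdown replicate 3 was above control replicates 1 and 2. Its estimate of -0.92 on the log2 scale (SE 0.78, edgeR adjusted p = 0.694, DESeq2 adjusted p = 0.811) ran from -2.23 to -0.23 when each culture was left out. DESeq2 called Tnc without knockdown replicate 3 (adjusted p = 0.00925).

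Matrilin-2, encoded by Matn2, is an adaptor of filamentous matrix. Matn2 (ENSRNOG00000006060, chromosome 7 from 73174202 to 73376715) was at 9.25, 5.91 and 28.8 CPM in the control and 1.52, 0.762 and 5.53 CPM in the knockdown cultures. The groups touched without overlapping: knockdown replicate 3 was just below control replicate 2, and with plain library totals in place of TMM the order of these cultures turned (5.69 against 5.51 CPM). Means were 14.7 ± 12.4 and 2.60 ± 2.56 CPM (SD, n = 3 each), or 17.8% of the control level. The log2 fold change of -2.50 (SE 0.81, edgeR unadjusted p = 0.0139, adjusted p = 0.385) was called by DESeq2 with an adjusted p of 0.0305. The DESeq2 call did not hold with a local dispersion fit (adjusted p = 0.157) or after leaving out control replicate 1 (0.0642) or 3 (0.692) or knockdown replicate 1 (0.265) or 2 (0.229). Without control replicate 3, which held 730 of the 1202 counts, the edgeR estimate was -1.52.

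Matrilin-4 (Matn4), the other member of that family, spread most widely. Matn4 (ENSRNOG00000014021, chromosome 3 from 167018918 to 167033936) was at 2.51, 20.7 and 13.4 CPM in the control and 0.976, 0.381 and 9.07 CPM in the knockdown cultures. Knockdown replicates 1 and 2 were below all controls, but knockdown replicate 3 was above control replicate 1. An estimate of -1.80 on the log2 scale (SE 1.09, edgeR adjusted p = 0.587, DESeq2 adjusted p = 0.690) was -4.20 without knockdown replicate 3, where DESeq2 called it (adjusted p = 2.79e-05). Matn4 overlaps Rbpjl, a transcription factor gene, by 1487 bases, and the library kit does not keep strand, so reads in the overlap cannot be told apart. Rbpjl had a similar order of cultures, at 1.19, 7.46 and 6.95 CPM in the control and 0.163, 0.139 and 5.13 CPM in the knockdown cultures.

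**Figure D2:**
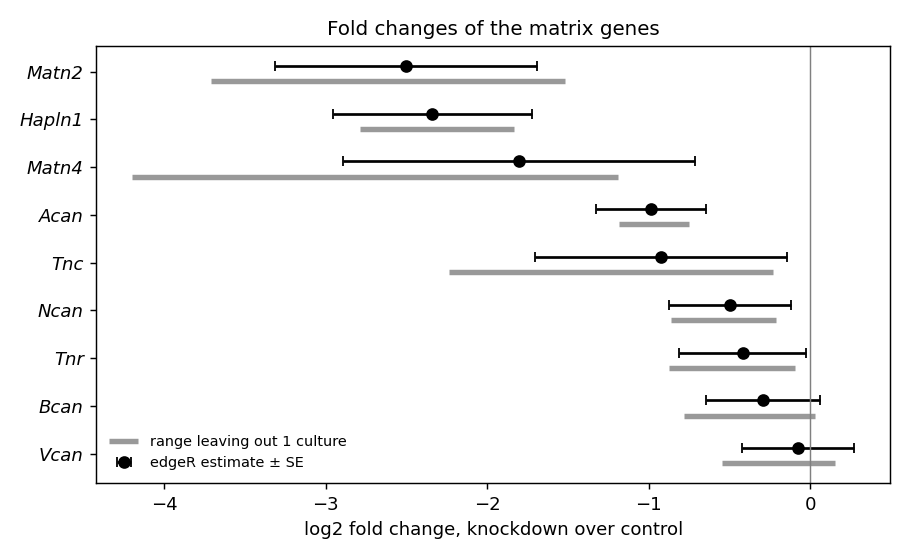
Log2 fold change of each tested matrix gene, knockdown over control, as the edgeR estimate ± SE (black) with the range of estimates when each of the 6 cultures is left out (grey). Matn2 and Hapln1 lie farthest below 0, at -2.50 and -2.34, and the range of Matn4 is the widest.

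The 3 knockdown cultures differed among themselves. Knockdown replicate 2 had the lowest value of all 6 cultures for 8 of the 9 tested rows, where 25.0% of all genes had it so, and lay below 50% of the control mean for the same number of rows, against 15.7% of genes. Vcan was the exception in both. Knockdown replicate 3 was the highest knockdown culture for 9 of the 9, against 36.9% of genes, and above the control mean for 5 (Bcan, Ncan, Vcan, Tnr and Tnc), against 45.6%. Relative to the control mean, it held 129% of Bcan, 148% of Vcan, 115% of Tnr and 116% of Tnc, but 63.2% of Acan, 30.1% of Hapln1 and 37.7% of Matn2. Knockdown replicate 1 was below the control mean for all 9, against 54.0% of genes. These counts were chosen after the values had been seen and carry no test. With knockdown replicate 3 left out, 8 of the 9 had an unadjusted edgeR p under 0.05 and DESeq2 called 4, while the shares over all genes were 17.1% and 5.07%. With control replicate 3 left out the member counts were 1 and 0, and the shares of all genes were 6.49% and 0.262%. They were 2 and 1 with knockdown replicate 2 left out, beside 6.48% and 0.829% of all genes.

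Markers of glia and of connective tissue varied between the same cultures. The 12 astrocyte markers had a summed level of 13696, 6452 and 6397 CPM in the control and 8614, 2627 and 6757 CPM in the knockdown cultures, so knockdown replicate 2 was lowest here too. Of the 11 tested, 9 had estimates below 0 (median log2 fold change -0.53), and Gjb6 was under 1 CPM in every culture. The 12 oligodendrocyte lineage markers summed to 618, 1784 and 1404 CPM in the control and 772, 676 and 2249 CPM in the knockdown cultures, with 5 of 11 lower. Control replicate 1 and knockdown replicates 1 and 2 were thus low and knockdown replicate 3 high. Gpr17, a receptor of committed oligodendrocyte precursors, was at 1.11, 53.4 and 42.7 CPM in the control and 0.379, 0.866 and 55.0 CPM in the knockdown cultures, an order close to that of Matn4. Mobp, a marker of mature oligodendrocytes, was under 1 CPM in every culture.

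All 8 tested microglia markers had estimates below 0 (median -3.54), and DESeq2 called 4 of the list. The 12 of the list summed to 89.9, 14.5 and 6.75 CPM in the control and 7.10, 0.554 and 2.57 CPM in the knockdown cultures. Control replicate 1 was the highest by far. It was also the highest for the astrocyte list and, by less, for Hapln1 (26.9 against 13.3 and 13.6 CPM in the other controls). Microglial Ptprc was under 1 CPM in every culture. Fibroblast and mural markers (8 of 10 found, 6 of 7 tested lower, median -0.73) summed to 215, 231 and 168 CPM in the control and 153, 151 and 316 CPM in the knockdown cultures, and Rgs5 of pericytes was under 1 CPM throughout. Pdgfrb, another marker of this list, was at 19.7 to 43.7 CPM in the control and 6.10 to 33.9 CPM in the knockdown cultures. Tagln, a smooth muscle gene, took up much of the sum of this list. It was at 105, 128 and 69.3 CPM in the control and 105, 132 and 226 CPM in the knockdown cultures. Its share of the sum was larger in every knockdown culture than in any control culture. The fibrillar collagen genes Col1a1, Col1a2 and Col3a1 had separated groups, all lower, with log2 fold changes of -1.30, -1.34 and -1.55 (edgeR unadjusted p = 0.0372, 0.0462 and 0.0149), and neither tool called them. Of 8 endothelial markers, 6 were under 1 CPM in every culture (Cdh5, Cldn5, Esam, Flt1, Tek and Tie1). Kdr was at 1.77, 1.07 and 18.4 CPM in the control and 0.596, 0.104 and 2.52 CPM in the knockdown cultures (log2 fold change -2.74). Pecam1 was at 1.15 to 2.51 CPM in the control and 0.664 to 3.47 CPM in the knockdown cultures (0.04). Neither tool called Kdr or Pecam1.

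General neuron markers (8 of 12 lower, median -0.24) and interneuron markers (6 of 11 lower, median -0.05) had summed levels that overlapped between the groups, and neither tool called a gene of them. Single genes of these lists did have separated groups, all lower: the synaptic genes Snap25 and Syt1 and the RNA-binding Elavl4 among the first, and Calb2 and Gad2 among the second. At an unadjusted edgeR p under 0.05 there were Snap25 and Dcx, both lower, and Calb2 (lower) and Slc32a1 (higher). Pvalb, which marks many of the neurons that carry nets, reached at most 1.03 CPM. Proliferating cell markers summed to 340 to 379 CPM in the control and to 300, 334 and 649 CPM in the knockdown cultures, with knockdown replicate 3 the highest. The part of these cell populations in the levels of the matrix genes was not tested.

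**Figure D3:**
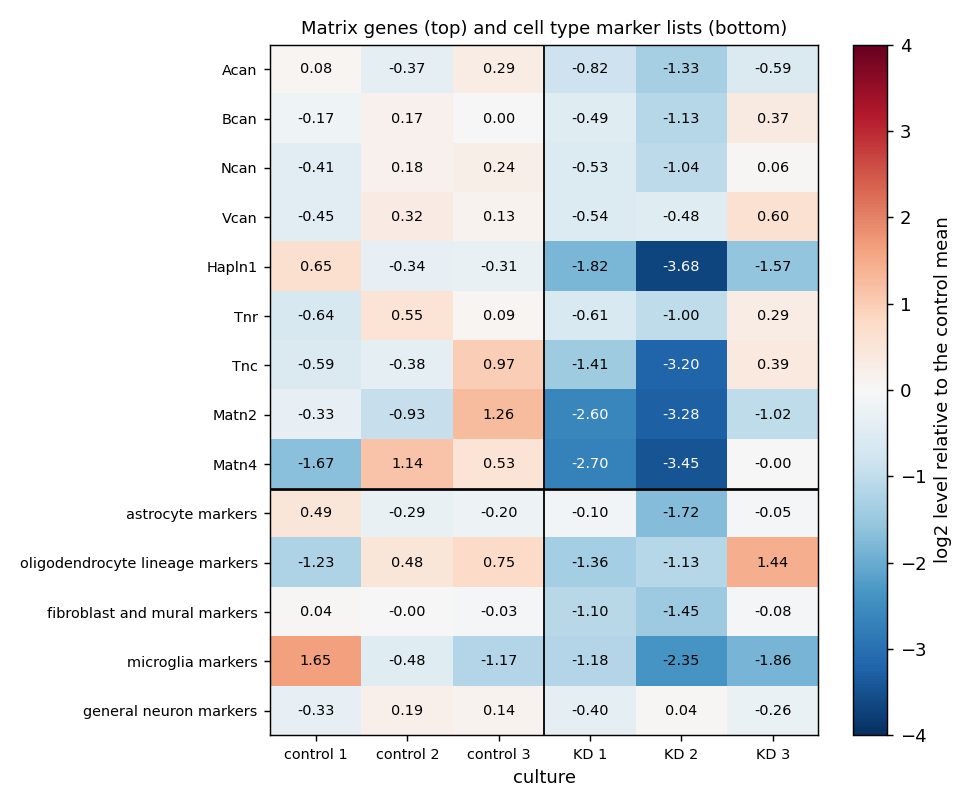
Log2 level in each culture relative to the mean of the 3 controls, after adding 0.5 CPM, for the tested matrix genes (top) and as the mean over each cell type marker list (bottom). Blue is lower and red is higher than the control mean, and knockdown replicate 2 is at -3.68 for Hapln1 and -1.72 for the astrocyte list, while knockdown replicate 3 is at 1.44 for the oligodendrocyte lineage list.

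Lists of other matrix genes were read in the same fits. Of 111 genes in 5 lists, 96 rows were tested, 71 with an estimate below and 25 with one above 0, at a median log2 fold change of -0.29. Over all genes 52.4% of estimates were below 0. The edgeR test called 0 of the 96 (13 lower and 0 higher at an unadjusted p under 0.05, against 7.14% of all genes lower and 3.69% higher), and DESeq2 called 5 of 98, all lower, against 1.07% of all genes lower. Groups did not overlap for 24, in either direction, against 17.6% of all genes. With control replicate 3 left out DESeq2 called 0 of them, with knockdown replicate 1 left out 1, with control replicate 1 or knockdown replicate 2 left out 2, with control replicate 2 left out 4, and with knockdown replicate 3 left out 9. The calls over all genes in the same fits were 41, 102, 140 and 123, 299 and 742, against 195 with every culture.

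Enzymes that build chondroitin sulfate, the sugar that lecticans carry, had a median near 0 (-0.01, 10 of 20 lower). DESeq2 called 1 of them, Csgalnact1, which starts the chondroitin sulfate chain. Csgalnact1 was at 27.9, 20.1 and 25.3 CPM in the control and 8.56, 4.85 and 12.1 CPM in the knockdown cultures. The groups did not overlap (log2 fold change -1.53, SE 0.35, edgeR adjusted p = 0.303, DESeq2 adjusted p = 0.00914). Chpf2 (0.42), B4galt7 (0.45) and B3galt6 (-0.42) are other enzymes of this synthesis that neither tool called. Among genes of hyaluronan and relatives of the link proteins and matrilins (5 of 9 lower, median -0.19), neither edgeR nor DESeq2 made a call (0 at an unadjusted edgeR p under 0.05). Has2, a hyaluronan synthase, was at 1.97 to 2.38 CPM in the control and 2.71 to 5.13 CPM in the knockdown cultures, without overlap (estimate 0.79 on the log2 scale, edgeR adjusted p = 0.483). Has3, another synthase, had -0.35, the hyaluronidase gene Hyal2 0.41 and the link protein gene Hapln3 -0.43.

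Among proteases and their inhibitors (15 of 19 lower, median -0.24), DESeq2 called Adamts15, whose product cleaves versican. Adamts15 was at 8.35, 12.6 and 15.3 CPM in the control and 3.90, 2.36 and 5.27 CPM in the knockdown cultures, without overlap (log2 fold change -1.66, SE 0.39, edgeR adjusted p = 0.313, DESeq2 adjusted p = 0.00844). The metalloprotease inhibitor Timp2 was at 422 ± 45.8 CPM in the control and 215 ± 85.9 CPM in the knockdown cultures (estimate -0.97 on the log2 scale, adjusted p = 0.381 from edgeR), and its groups did not overlap. The lectican-cleaving Adamts1 and Adamts9 had log2 fold changes of -2.04 and -1.16, and neither tool called them. Adamts1 rests on control replicate 3 (12.2 CPM against 2.34 and 1.89 in the other controls), and its DESeq2 estimate moved from -2.02 to -0.62 without it. That of Adamts9 moved from -1.13 to -0.57 without control replicate 1.

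Receptors and binding partners of the matrix were lower in 24 of 28 tested (median -0.40), and DESeq2 called 3. Ncam1, an adhesion molecule that binds neurocan, was at 951 ± 103 CPM in the control and 433 ± 117 CPM in the knockdown cultures (log2 fold change -1.13, DESeq2 adjusted p = 0.0153). Rtn4rl1, a receptor for chondroitin sulfate proteoglycans, was at 51.4 ± 14.6 and 24.0 ± 4.22 CPM (-1.10, DESeq2 adjusted p = 0.0391). Nptx1, a pentraxin that clusters AMPA receptors, was at 12.4 ± 3.45 and 4.28 ± 1.83 CPM (-1.53, DESeq2 adjusted p = 0.0289). All of these are SD over 3 cultures, and edgeR adjusted p-values were 0.291, 0.331 and 0.346. With each culture left out in turn, the DESeq2 call of Nptx1 was lost in 5 fits and that of Rtn4rl1 in 4. The calls of Ncam1, Csgalnact1 and Adamts15 were lost in 3 fits each. Ptprd, a receptor phosphatase of the family that binds proteoglycans, was at -0.64 (edgeR adjusted p = 0.347). Of the other proteoglycans (17 of 20 lower, median -0.43), neither edgeR nor DESeq2 made a call (1 at an unadjusted edgeR p under 0.05). That gene was decorin (Dcn), at -2.13 on the log2 scale (DESeq2 adjusted p = 0.0657). The glypicans Gpc2 and Gpc4 had 0.57 and -0.61, and the syndecan Sdc1 had 0.52.

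**Figure D4:**
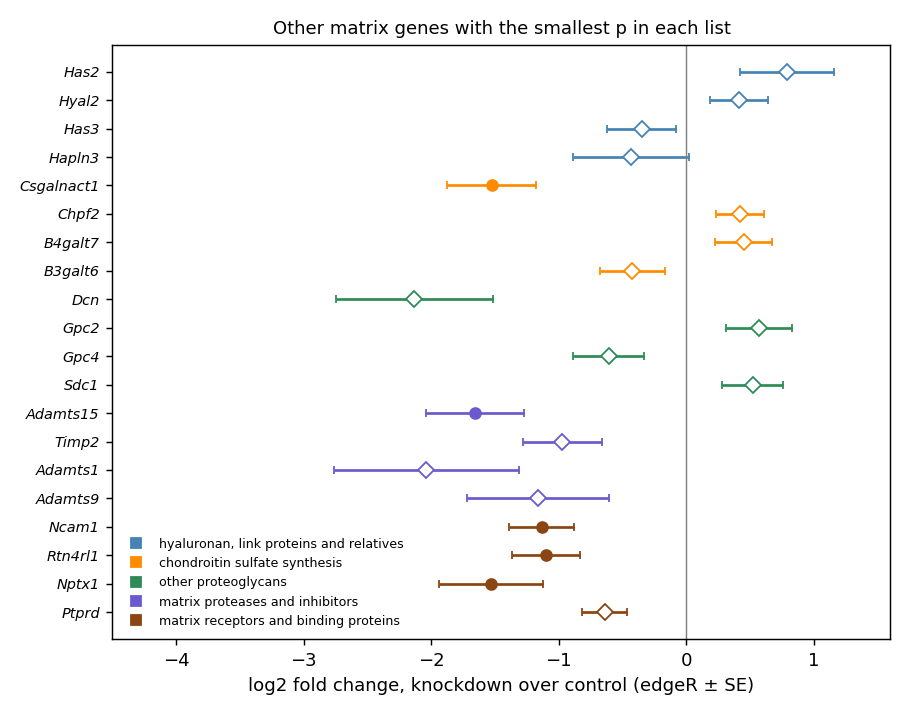
Log2 fold change (edgeR estimate ± SE), knockdown over control, of the 4 genes with the smallest edgeR p in each of 5 matrix gene lists. Filled circles are genes called by DESeq2 (Csgalnact1, Adamts15, Ncam1, Rtn4rl1 and Nptx1, all below 0) and open diamonds are genes it did not call.

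For each tested member, the matrix gene with the most similar pattern was sought among 105 rows, by the root mean square distance of log2 CPM over the 6 cultures after centring each gene. Acan lay nearest to Timp2 (0.20 on the log2 scale), and next to Ncam1 (0.22). Vcan and Tnr both lay nearest to the neuronal pentraxin Nptx2 (0.098 and 0.17), Bcan nearest to the tenascin gene Tnxb (0.16) and Ncan to Hapln3 (0.18). For Hapln1 the nearest was the thrombospondin gene Thbs2, at 0.51, with Csgalnact1 at 0.58. Tnc was nearest to the small proteoglycan gene Fmod (0.50), and both matrilin genes were nearest to Tnc, at 0.67 for Matn2 and 0.91 for Matn4. Distances depend on how much a gene varies, and the 6 cultures are shared by all. Levels are not compared between genes here, because only spans with introns were available as lengths.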

How the data were processed

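RNA was measured in 6 cultures, 3 per group, grouped by their labels. The authors sequenced single-end reads of 50 bases from TruSeq RNA v2 libraries, demultiplexed with CASAVA 1.8.2, aligned with STAR 2.3.0 to rn5 and counted with HTSeq 0.6. The deposited values are raw counts per Ensembl gene. The Ensembl release and HTSeq settings are not given in the sources used here. Of 26405 rows, 6675 held no count. Counts were fitted over the whole table in R 4.3.3 with edgeR 4.0.16 (TMM, filterByExpr with a minimum of 10 counts, condition alone), and with DESeq2 1.42.0, which the authors had used in version 1.8.1. Both used a threshold of 0.05. The list the authors published at that threshold is longer than the 195 genes that DESeq2 called here. It holds Acan, Hapln1 and Matn2, and also Timp2, Ptprd, Col3a1, Fmod, Itga8, Slc1a2 and Kdr, all lower. Of these genes, DESeq2 called only Hapln1 and Matn2 here. The published list also holds Csgalnact1, Adamts15, Ncam1, Rtn4rl1, Nptx1 and the microglia marker Trem2, all lower, and DESeq2 called each of them here too. The biological coefficient of variation was 0.317. Members and lists were chosen with earlier results of these data known, and 6 list genes (Hmmr, Chsy3, Gpc6, Nrcam, Acta2 and Fn1) were not matched by name. Named genes were all members, Magi2, a nearest gene for each member, and per list the 4 smallest edgeR p among genes with a mean of at least 1 CPM. Some marker genes were named after their values were seen, and some genes because the published list holds them. Alternatives were other normalizations, filters, limma-voom (limma 3.58.1), a local dispersion fit, a replicate block and leaving out each culture. The steps were tested on simulated data.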

Additional observations from a re-analysis of the deposited data

How the results depend on the processing

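The edgeR count of called members was 0 under every alternative run, including limma-voom. Over all genes the count was 0 in these fits too, except 8 with no filter on low counts and 1 without knockdown replicate 2. The DESeq2 count of 2 was 1 with a local dispersion fit, where DESeq2 called 516 genes in all against 195. With each culture left out that member count ran from 0 to 4. The members at an unadjusted edgeR p under 0.05 ran from 1 to 8, beside 6.48% to 17.1% of all genes. The DESeq2 count of 5 other matrix genes ran from 0 to 9, while DESeq2 called 41 to 742 genes in all. Groups were separated for 2 members with plain library totals, against 3. The estimate of Bcan turned to 0.031 (DESeq2 0.028) without knockdown replicate 2 and was lowest, at -0.78 (DESeq2 -0.76) without knockdown replicate 3. That of Vcan turned to 0.11, 0.0054, 0.15 and 0.14 (DESeq2 0.11, 0.020, 0.16 and 0.14) without control replicates 2 and 3 and knockdown replicates 1 and 2, in that order, and was lowest, at -0.55 (DESeq2 -0.52), without knockdown replicate 3. For Magi2 the log2 fold change ran from -1.71 to -1.22, and DESeq2 gave -1.44, past its threshold except without control replicate 3 (adjusted p = 0.0785). In all of these the cause of the change was not tested.

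Replicate numbers are shared by the groups, but no label says that they mark pairs, and the main fits used condition alone. A figure legend of the study gives 3 independent experiments. The deviations of same-numbered cultures correlated at 0.61, 0.097 and -0.13. With 3 cultures per group, these correlations cannot decide whether cultures were paired. The count columns also carry a number that is the same for a control and a knockdown culture, but the labels do not say what it stands for. Of the cultures, only the pair numbered 1 correlated best with its own number. With a replicate block, edgeR called 0 members (4 at an unadjusted p under 0.05, against 12.1% of all genes). There DESeq2 called 3 members and 9 other matrix genes, of 295 genes in all against 195, and Magi2 was at -1.50. The member gained was Tnc (DESeq2 adjusted p = 0.0194). Hapln1 and Matn2 kept their calls under the block (DESeq2 adjusted p = 6.0e-06 and 4.2e-09), and Acan was not called (0.177). Counts were lowest in knockdown replicate 2, the deepest library, for Hapln1 (25), Matn2 (22) and Matn4 (11), which limits the precision of these values.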
